A study of Mus musculus with 63 samples.

Results

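The genes described here are 5 ligands of the epidermal growth factor (EGF) family (Ereg, Areg, Hbegf, Tgfa and Btc), 3 receptors of the ERBB family (Egfr, Erbb2 and Erbb3) and Lrig1, a membrane protein that restrains these receptors. They were chosen by symbol, and all 9 were found among the 24766 genes of the table and passed the filter on low values. The question asked of them was whether the clones that share 1 tumour differ in a complementary way, with more ligand in the one clone and more receptor in the other.

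Bulk RNA was sequenced from 63 dissected tumour samples of the small intestine of 2 mice, 1 female and 1 male, so that mouse and sex cannot be told apart. Both mice were Apchet, that is Villin-creERT2, Apc fl/+ and heterozygous for the R26R-Confetti colour reporter, and both were over 8 weeks old when they received 4 mg tamoxifen, with 200 mg/kg of the mutagen N-ethyl-N-nitrosourea (ENU) given 10 days later. Villin-creERT2 acts in intestinal epithelium, and every library, whatever its group, came from a mouse with this deletion and treatment. The 20 divided tumours, 10 per mouse, were heterotypic. In the study this means glands in 2 or more Confetti colours, or in 1 colour beside unlabelled glands. The clone of larger size (major) and that of smaller size (minor) of these tumours gave 20 libraries each. A further 23 tumours were sequenced undivided, 13 of them from the male and 10 from the female mouse. No normal tissue is among the libraries.

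EGF-family ligands are made as membrane proteins and are released by proteases of the cell surface. Ereg, Areg, Hbegf, Tgfa and Btc bind EGFR, and binding makes it pair with itself or with ERBB2 and ERBB3. ERBB2 has no known ligand of its own, and ERBB3 binds neuregulins and depends on its partners for kinase activity. The receptors feed the RAS-MAPK and PI3K pathways, which drive growth of intestinal crypt cells, while LRIG1 marks crypt stem cells and promotes the degradation of ERBB receptors.

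The deposited values, called normalised counts below, are estimated read counts per gene that the authors scaled between libraries. They summed to between 26140000 and 45910000 per library, with a depth of roughly 13129000 to 51989000 reads as estimated from what 1 read was worth. A single worth was taken for each library, although it varies between genes, so these depths are approximate. Epithelial markers were abundant in every library: the summed normalised count of 10 of them ran from 248820 to 856480, against 925 to 28281 for 10 fibroblast markers. Rn18s, the 18S ribosomal RNA, which has no poly(A) tail, ran from 161060 to 6081400 and in 15 of 20 tumours stood lower in the major clone, by a median of 1.36 on the log2 scale. The undivided tumours 15, 17 and 18 of the male mouse lay outside the range of the other undivided tumours in 4 members (Areg, Hbegf, Tgfa and Egfr), and the differences of named members in undivided tumours are given with and without them. In bulk tissue, fewer cells of a type and less RNA per cell cannot be told apart.

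The 250 bases before the annotated start of Ereg, Areg, Tgfa and Egfr are shown because the correlations of ligands with Egfr between clones, given further below, turn on these genes. Each is read 5′ to 3′ on the strand of its gene (plus in all 4), on GRCm39 and with the canonical transcript of Gencode M39. Capitals mark matches on either strand to 4 short motifs: TGANTCA (AP-1), GGAATG (TEAD), TCAAAG (TCF) and GGGCGG (SP).
Ereg (chr5:91221907-91222156): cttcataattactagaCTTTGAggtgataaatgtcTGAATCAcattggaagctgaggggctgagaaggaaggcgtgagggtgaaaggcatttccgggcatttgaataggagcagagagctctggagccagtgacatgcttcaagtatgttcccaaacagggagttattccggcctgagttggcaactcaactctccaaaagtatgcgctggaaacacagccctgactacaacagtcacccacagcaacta
Areg (chr5:91287201-91287450): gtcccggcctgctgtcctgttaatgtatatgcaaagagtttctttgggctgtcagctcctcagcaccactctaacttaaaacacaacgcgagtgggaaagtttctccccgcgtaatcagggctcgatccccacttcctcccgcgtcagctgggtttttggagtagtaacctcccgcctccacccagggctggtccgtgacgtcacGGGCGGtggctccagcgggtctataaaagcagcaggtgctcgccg
Tgfa (chr6:86171791-86172040): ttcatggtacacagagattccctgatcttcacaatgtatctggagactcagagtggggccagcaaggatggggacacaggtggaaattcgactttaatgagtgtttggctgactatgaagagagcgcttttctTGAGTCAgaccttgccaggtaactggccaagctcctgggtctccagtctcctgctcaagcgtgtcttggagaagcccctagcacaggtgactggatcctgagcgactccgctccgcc
Egfr (chr11:16701948-16702197): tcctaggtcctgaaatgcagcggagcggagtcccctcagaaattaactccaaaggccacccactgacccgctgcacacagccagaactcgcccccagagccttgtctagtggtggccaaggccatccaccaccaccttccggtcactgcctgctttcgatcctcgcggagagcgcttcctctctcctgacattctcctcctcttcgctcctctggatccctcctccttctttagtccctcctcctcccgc

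The AP-1 letters began 215 bases before the start of Ereg and 117 bases before that of Tgfa, and they are in 6.18% of the windows of the same length before 21738 protein-coding genes. The SP letters, 45 bases before Areg, are in 36.3% of all such windows, the TCF letters of the Ereg window in 14.1%, and the TEAD letters, of which none of these 4 windows holds a match, in 12.1%. The window before Egfr holds none of the 4 motifs, which says only that these letters are not in these 250 bases. Over all 9 members, AP-1 letters were found in 3 windows (Ereg, Tgfa and Erbb3) and SP letters in 4 (Areg, Hbegf, Erbb3 and Lrig1).

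Ereg (ENSMUSG00000029377), Areg (ENSMUSG00000029378) and Btc (ENSMUSG00000082361) are neighbours on mouse chromosome 5. On the GRCm39 build, Ereg spans chr5:91222157-91241505 on the plus strand, and Areg starts 45.9 kb further on, at chr5:91287451-91296291. Btc lies 208.8 kb past Areg, on the minus strand at chr5:91505120-91550883. Tgfa (ENSMUSG00000029999) is at chr6:86172041-86252728, Hbegf (ENSMUSG00000024486) at chr18:36637980-36649677 and Lrig1 (ENSMUSG00000030029) at chr6:94581510-94677242. Of the receptors, Egfr (ENSMUSG00000020122) is at chr11:16702198-16868158, Erbb2 (ENSMUSG00000062312) at chr11:98303203-98328542 and Erbb3 (ENSMUSG00000018166) at chr10:128403392-128425811. All are protein-coding genes, and the counts cover their exons.

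Levels were compared between genes per kb of annotated exon. On that scale Erbb3 was the highest member, with a median of 938.7 normalised counts per kb over the 63 libraries (523.3 to 1627), and it was above Erbb2 in 61 of them. Erbb2 (median 555.3) and Areg (546.8), the most abundant ligand, could not be ordered, with Erbb2 higher in 29 of 63 libraries. Tgfa (284.2), Egfr (229.5), Btc (216.4), Lrig1 (187.8) and Hbegf (173.3) followed, each above the next in 33 to 42 libraries. Ereg was the lowest, with a median of 59.2, and was below Hbegf in 62 of 63 libraries. The range was widest for Ereg (0.786 to 244.4 per kb), Areg (17.3 to 1258) and Egfr (18.5 to 536.7), and narrow for Erbb2 (336.3 to 858.8).

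**Figure D1:**
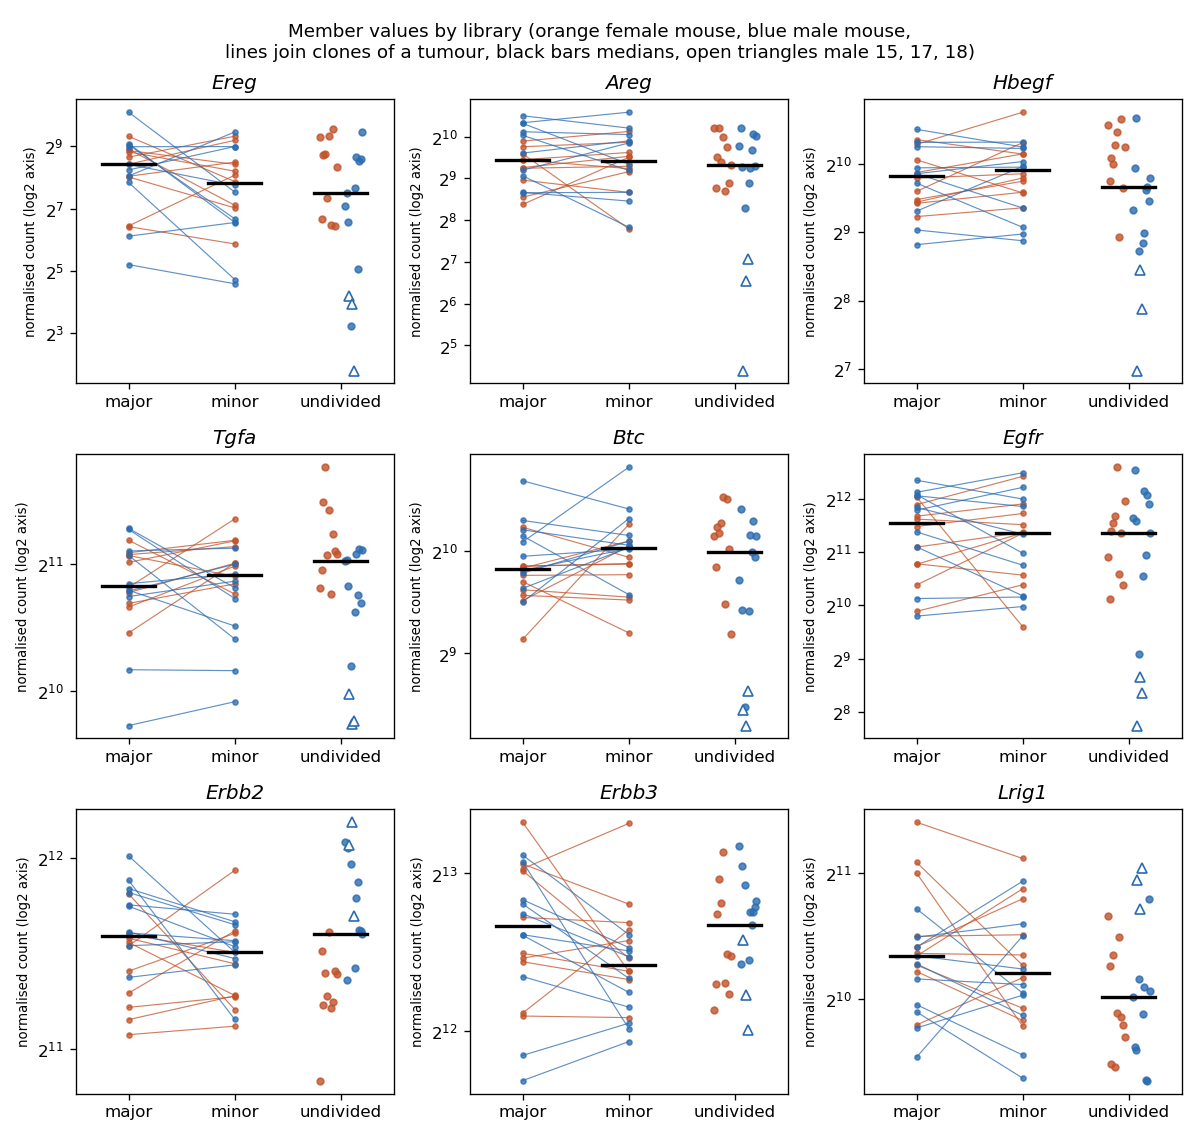
Normalised counts (log2 axis) of the 9 members in the major and minor clones, joined by a line within each tumour, and in the undivided tumours, with the female mouse in orange and the male mouse in blue; black bars are medians. The lines of Ereg cross in both directions, with minor clones between 24.1 and 701 and major clones between 36.8 and 1088, and the open triangles (undivided tumours 15, 17 and 18 of the male mouse) lie below all clones in Ereg, Areg, Hbegf, Btc and Egfr.

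Between the major and minor clones of a tumour, none of the 9 members passed the test (limma with the tumour as a block, adjusted p over 16428 genes, 188 or 1.14% of which were called). By the unadjusted p, 1 of the 9 members was under 0.05, Erbb3. Among all genes tested 22.4% were, so the members did not exceed that share. The members' median difference was 0.10 on the log2 scale, and 6 of 9 were higher in the major clone. No member passed under any of 33 other settings of this comparison, in which the lowest adjusted p was 0.079, for Erbb3 (limma). The fits without tumour 22 and without tumour 26 of the female mouse are each counted there more than once.

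Among the ligands, Ereg (epiregulin) had the largest difference and the largest spread. Its normalised count ran from 36.8 to 1088 in major clones (median 342.0) and from 24.1 to 701.2 in minor clones (median 223.8), so that the groups overlapped over most of their range. It was higher in the major clone in 12 of 20 tumours and lower in 8, and the 2 clones of a tumour differed more than 2-fold in 8 tumours, 6 of them upwards. The difference averaged 0.57 on the log2 scale (SE 0.28, 95% interval -0.01 to 1.16, adjusted p = 0.23, limma). The tumours at the upper end were male: in tumour 27 of the male mouse Ereg was at 228.5 in the major and 26.4 in the minor clone, and in tumours 29, 28 and 22 it was 5.87, 5.71 and 5.15 times higher in the major clone. In tumour 28 of the female mouse the order was the opposite, with 86.9 in the major and 268.9 in the minor clone.

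Areg (amphiregulin) was almost evenly split, higher in the major clone in 9 tumours and lower in 11. Its normalised count ran from 332.3 to 1450 in major clones (median 696.6) and from 222.0 to 1537 in minor clones (median 688.0). The mean difference was 0.11 (SE 0.14, 95% interval -0.19 to 0.40, adjusted p = 0.69, limma). Only 3 tumours exceeded 2-fold, among them tumour 26 of the female mouse, with 771.1 in the major and 222.0 in the minor clone. Another was tumour 22 of that mouse, in the opposite direction, with 332.3 and 726.4. The clones of this tumour 22 carry different intestinal segment labels, SI20 for the major and SI10 for the minor clone.

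The other ligands were also close between clones. Hbegf (heparin-binding EGF-like growth factor) had a median of 904.6 in major and 955.5 in minor clones (450.9 to 1447 and 469.1 to 1722) and a mean difference of -0.06 (95% interval -0.22 to 0.11). Tgfa, the ligand whose clone difference varied least between tumours, had medians of 1822 and 1929 (849.4 to 2488 and 967.5 to 2620) and a mean difference of -0.01 (-0.16 to 0.14). Btc (betacellulin) had medians of 903.5 and 1044 (562.9 to 1642 and 588.6 to 1800) and a mean difference of -0.12 (-0.32 to 0.07). The minor clone held more of these 3 ligands in 13, 13 and 12 tumours, and their intervals leave room for a change of at most 0.32 in either direction.

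Egfr, the receptor that all 5 ligands bind, ran from 890.4 to 5232 in major clones (median 3009) and from 774.7 to 5770 in minor clones (median 2627). The mean difference was 0.11 (SE 0.16, 95% interval -0.22 to 0.43, adjusted p = 0.73, limma), but it rested on tumour 26 of the female mouse, in which Egfr was at 4203 in the major and 774.7 in the minor clone. Without that tumour the mean difference was -0.02. In the same tumour the epithelial marker list was 1.03 higher in the major clone on the log2 scale, the highest of the 20 tumours, and Rn18s stood at 386380 in the major and 4830900 in the minor clone, and their part in this difference was not tested. In 11 of 20 tumours the minor clone held more Egfr than the major clone.

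Erbb2 ran from 2155 to 4121 in major clones (median 3079) and from 2222 to 3912 in minor clones (median 2905), with a mean difference of 0.09 (SE 0.06, 95% interval -0.04 to 0.23). Erbb3 had the most regular difference of the 9 members, higher in the major clone in 15 of 20 tumours, with medians of 6508 (3300 to 10257) and 5491 (3916 to 10205). The mean difference was 0.20 (SE 0.08, 95% interval 0.02 to 0.37), with p = 0.029 before and 0.17 after adjustment (limma), so it did not pass. The largest difference was in tumour 20 of the male mouse, with 8624 in the major and 4147 in the minor clone.

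Lrig1 ran from 743.3 to 2708 in major clones (median 1298) and from 662.1 to 2218 in minor clones (median 1179). It was higher in the major clone in 12 of 20 tumours, by a mean of 0.10 (SE 0.11, 95% interval -0.12 to 0.33, adjusted p = 0.61, limma). A test of whether the clone difference itself differed between the male and the female mouse called none of the 9 members (and 0, or 0%, of 16428 genes). The member nearest to the threshold was Tgfa, whose difference was 0.29 higher in the male mouse (p = 0.047, adjusted p = 0.65, limma).

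**Figure D2:**
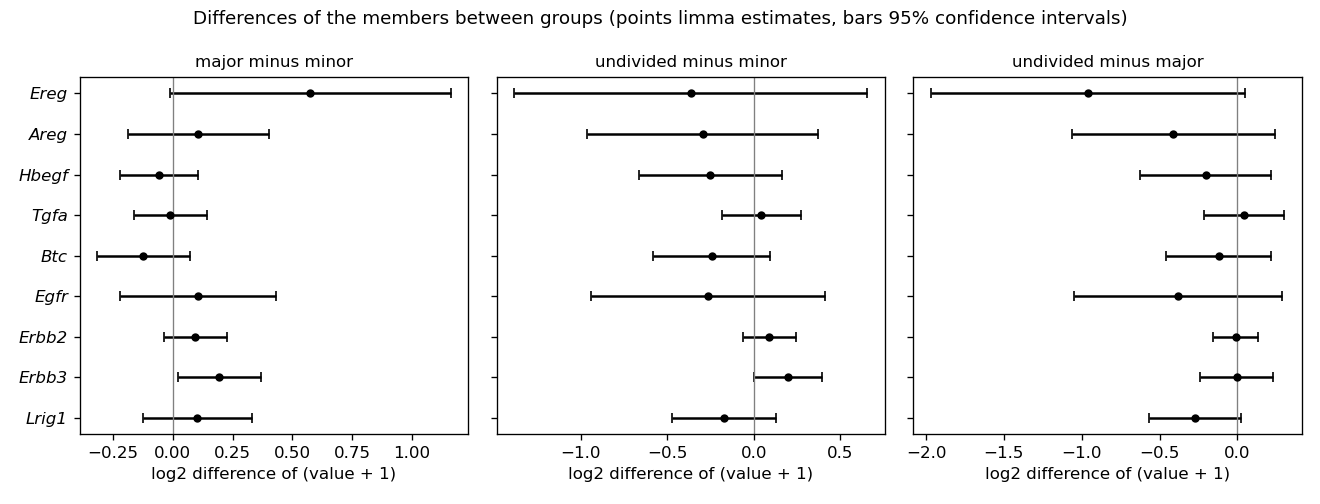
Log2 differences of the 9 members between groups as estimated by limma, with 95% confidence intervals, for major minus minor clones (20 tumours), undivided tumours minus minor clones and undivided tumours minus major clones. The interval of Erbb3 excludes 0 in the first 2 panels (0.02 to 0.37 and 0.0002 to 0.40), and no member passed after adjustment.

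The question of complementary clones was put to the differences themselves, with 1 value per tumour (log2 major minus minor) for each member. Over the 20 tumours, 15 pairs of a ligand and a receptor were compared, and 2 correlated past the threshold after adjustment over the 15, both with a positive sign. No pair passed with a negative sign, by Pearson's r or by Spearman's rho. The passing pairs were Areg with Egfr and Tgfa with Egfr.

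The differences of Areg and Tgfa correlated positively with that of Egfr, but not every tumour had the same sign. Areg and Egfr had the same sign in 12 of 20 tumours and opposite signs in 8. For Tgfa and Egfr these numbers were 14 and 6. The difference of Areg correlated with that of Egfr at r = 0.76 (permutation p = 0.00016, adjusted p = 0.0024), with r = 0.78 in the female and 0.73 in the male mouse (10 tumours each). By rank the relation was weaker, with rho = 0.49 (permutation p = 0.030, adjusted p = 0.14), and without the 2 tumours farthest from the median in Areg r was 0.50 (adjusted p = 0.18, permutation). Tgfa and Egfr correlated at r = 0.61 (permutation p = 0.0033, adjusted p = 0.025) and rho = 0.73 (permutation p = 0.00043, adjusted p = 0.0064), with r = 0.53 in the female and 0.78 in the male mouse, and r was 0.61 without the 2 tumours farthest in Tgfa, which no longer passed (adjusted p = 0.10, permutation). With the difference of Rn18s regressed out, Tgfa and Egfr were at r = 0.38 and did not pass (adjusted p = 0.36, permutation). Ereg with Egfr gave r = 0.49 (permutation p = 0.026, adjusted p = 0.13) and rho = 0.61 (permutation p = 0.0051, adjusted p = 0.038). Btc (r = 0.44) and Hbegf (r = 0.30) did not pass with Egfr by either measure.

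Tumour by tumour, the 3 with the largest excess of Egfr in the major clone also had more Areg there. In tumour 26 of the female mouse both were higher in the major clone (3.46-fold in Areg and 5.42-fold in Egfr), as in tumour 29 of the male mouse (1.97-fold and 2.14-fold) and tumour 22 of that mouse (2.34-fold and 1.89-fold). Tumour 29 of the female mouse, with the largest excess of Egfr in the minor clone (1336 in the major and 2622 in the minor clone), went the other way in Areg (498.0 and 405.9). Without tumour 26 of the female mouse, Areg with Egfr was at r = 0.61 and Tgfa with Egfr at 0.77, and 4 of the 15 pairs passed in place of 2, all positive. Taking the mean of the 5 ligand differences, ligands and Egfr had the same sign in 13 of 20 tumours, higher in the major clone in 7 and lower in 6. They had opposite signs in 7 tumours, with ligands higher and Egfr lower in the major clone in 5.

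Erbb2 and Erbb3 did not follow the ligands. Their correlations with the 5 ligands ran from -0.35 (Btc with Erbb2) to -0.13 and from -0.33 (Hbegf with Erbb3) to 0.03, and the lowest adjusted p among these 10 pairs was 0.40 (permutation). The mean of the ligand differences and Erbb2 had opposite signs in 10 of 20 tumours, and for Erbb3 the number was 9. A negative relation of the size seen here cannot be told from 0 with 20 tumours.

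**Figure D3:**
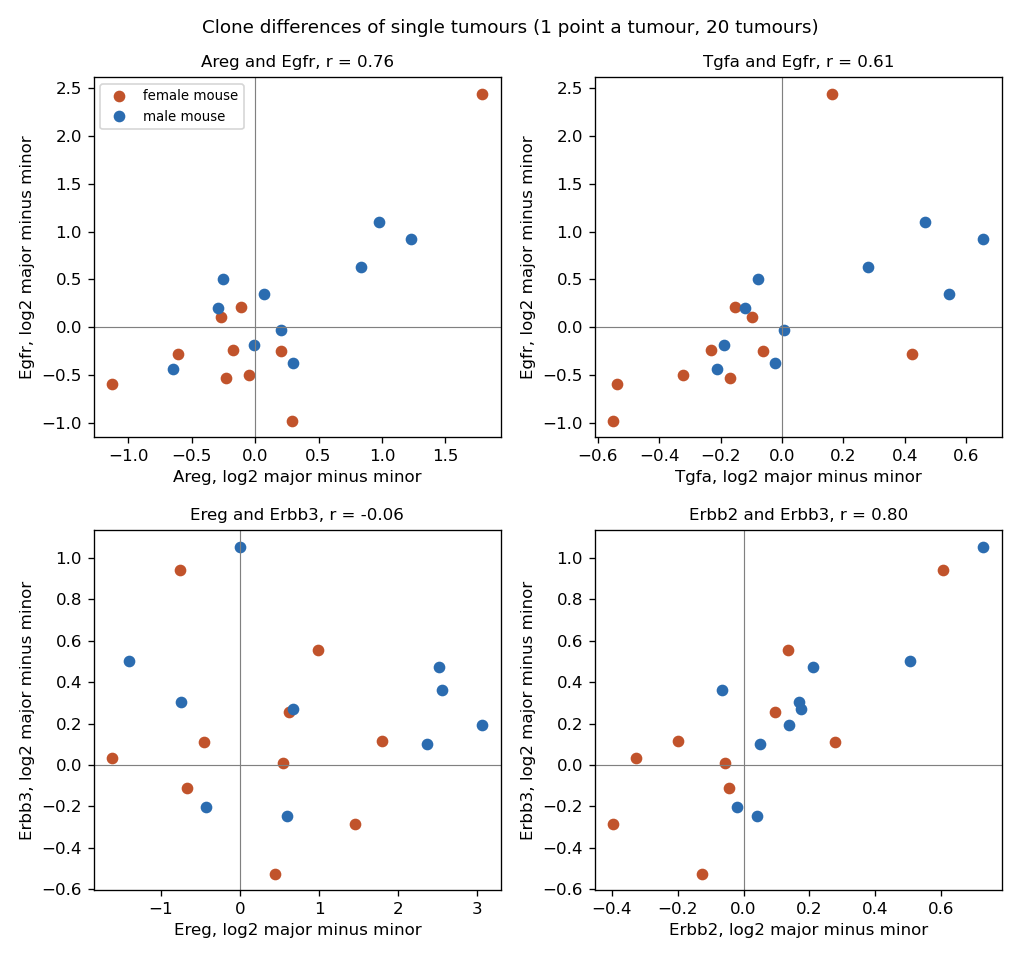
Clone differences (log2 major minus minor) of single tumours, 1 point for each of 20, with the female mouse in orange and the male mouse in blue: Areg and Tgfa against Egfr, Ereg against Erbb3 and Erbb2 against Erbb3. The upper panels and the lower right one rise from lower left to upper right (r = 0.76, 0.61 and 0.80), while Ereg and Erbb3 show no slope (r = -0.06), and the highest Egfr point is tumour 26 of the female mouse.

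The 2 receptors that did not follow the ligands moved together. Erbb2 and Erbb3 correlated at r = 0.80 over the 20 tumours (permutation p = 5e-05, adjusted p = 0.0010 over the 21 remaining pairs of members) and rho = 0.73 (permutation p = 0.00046, adjusted p = 0.0097), with r = 0.77 in the female and 0.83 in the male mouse and 0.62 without the 2 tumours farthest in Erbb2. Egfr correlated with neither, at r = -0.04 with Erbb2 and 0.19 with Erbb3. Erbb2 and Erbb3 were on the same side in 15 of 20 tumours.

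The 5 ligands also tended to move together, with r from 0.23 to 0.70 in all 10 pairs. By Pearson's r 5 pairs passed, and by rank 2, with Areg and Btc passing by both. The strongest was Areg with Btc, 2 genes of the chromosome 5 cluster, at r = 0.70 (permutation p = 0.00080, adjusted p = 0.0084) and rho = 0.61 (permutation p = 0.0054, adjusted p = 0.045), with r = 0.57 without the 2 tumours farthest in Areg. Ereg and Areg, the closest neighbours on the chromosome, gave r = 0.56 (permutation p = 0.0093, adjusted p = 0.046) and rho = 0.54 (permutation p = 0.015, adjusted p = 0.064), and r = 0.48 without the 2 tumours farthest in Ereg. Ereg and Btc, of the same cluster, were at r = 0.23. The correlations of Lrig1 with the ligands and receptors ran from -0.41 (with Egfr and with Tgfa) to -0.003 (with Ereg), and none passed.

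**Figure D4:**
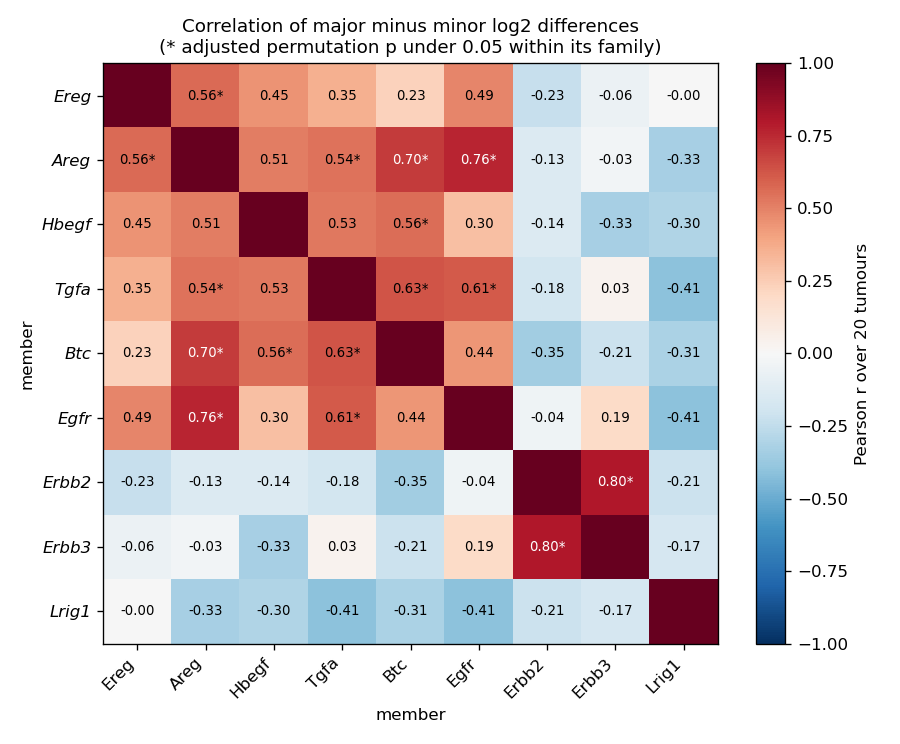
Pearson correlations over 20 tumours of the clone differences (log2 major minus minor) among the 9 members, with stars where the permutation p adjusted within its family (15 ligand and receptor pairs or 21 other pairs) is under 0.05. The ligands and Egfr form a block of positive values (0.23 to 0.76), Erbb2 and Erbb3 form a second one (0.80), and every value of Lrig1 is below 0.

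The levels of several members correlated between the 2 clones of a tumour. These levels were not centred on mouse or segment, so differences between mice or segments can enter r and p. Hbegf in the major clone correlated with Hbegf in the minor clone of the same tumour at r = 0.72 (permutation p = 0.00050, adjusted p = 0.0045 over 9 members), with r = 0.65 in the female and 0.79 in the male mouse and rho = 0.68 (permutation p = 0.0015, adjusted p = 0.013), and with r = 0.56 without the 2 tumours farthest from the median. Areg (r = 0.53) and Egfr (r = 0.57) also passed by both measures (adjusted p between 0.015 and 0.038, permutation), but with r = 0.16 and 0.24 in the female mouse against 0.73 and 0.83 in the male mouse. Without the 2 farthest tumours their r was 0.56 and 0.44. Tgfa (r = 0.58) and Erbb3 (r = 0.51) passed by Pearson's r and not by rank. For Tgfa r was 0.01 in the female and 0.75 in the male mouse, and -0.15 without the 2 tumours farthest from the median. Ereg (r = 0.46), Lrig1 (0.36), Erbb2 (0.26) and Btc (0.23) did not pass.

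Marker lists of other cell types were set beside the members in the same way, with the difference of each of 7 lists averaged over its genes and p-values adjusted over 63 pairs. Ereg moved with 2 of them, fibroblasts (r = 0.74, permutation p = 0.00029, adjusted p = 0.014; rho = 0.73, adjusted p = 0.012) and endothelial cells (r = 0.71, permutation p = 0.00044, adjusted p = 0.014; rho = 0.74, adjusted p = 0.012). Within the mice r with the fibroblast list was 0.87 in the female and 0.63 in the male, and without the 2 tumours farthest in the list it was 0.64. With the endothelial list r was 0.72 and 0.67 within the mice, and 0.77 without the 2 farthest tumours. The fibroblast list itself was higher in the major clone in 13 of 20 tumours, with a median difference of 0.66 over all 20. Its summed level ran from 2230 to 28281 in major and from 2109 to 26100 in minor clones. Ereg was more than 5-fold higher in the major clone in tumours 27, 29, 28 and 22 of the male mouse. There the fibroblast list was higher in the major clone by 0.82, 2.62, 2.41 and 0.66 on the log2 scale. The part of these cells in the Ereg difference was not tested.

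No other member passed with a marker list. Areg, Hbegf, Tgfa and Btc correlated with the fibroblast list at 0.21, 0.05, 0.29 and 0.05. Egfr with the epithelial list gave r = 0.68 (permutation p = 0.0059, adjusted p = 0.12), which fell to 0.28 without the 2 tumours farthest in the list. Rn18s was looked at in addition: its difference ran against that of Tgfa (r = -0.63, permutation p = 0.0031, adjusted p = 0.014 over 9 members) and Egfr (r = -0.60, permutation p = 0.0028, adjusted p = 0.014), with rho = -0.63 for both. These values were -0.76 and -0.60 in the female mouse, -0.42 and -0.54 in the male mouse, and -0.70 and -0.51 without the 2 tumours farthest in Rn18s. With the Rn18s difference regressed out, Areg and Egfr stayed at r = 0.77 (adjusted p = 0.00090, permutation), while Tgfa and Egfr dropped to 0.38. With the fibroblast difference regressed out these pairs were at 0.75 (adjusted p = 0.0036, permutation) and 0.57 (adjusted p = 0.053, permutation), and with the epithelial difference regressed out at 0.72 (adjusted p = 0.0028, permutation) and 0.64 (adjusted p = 0.011, permutation).

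**Figure D5:**
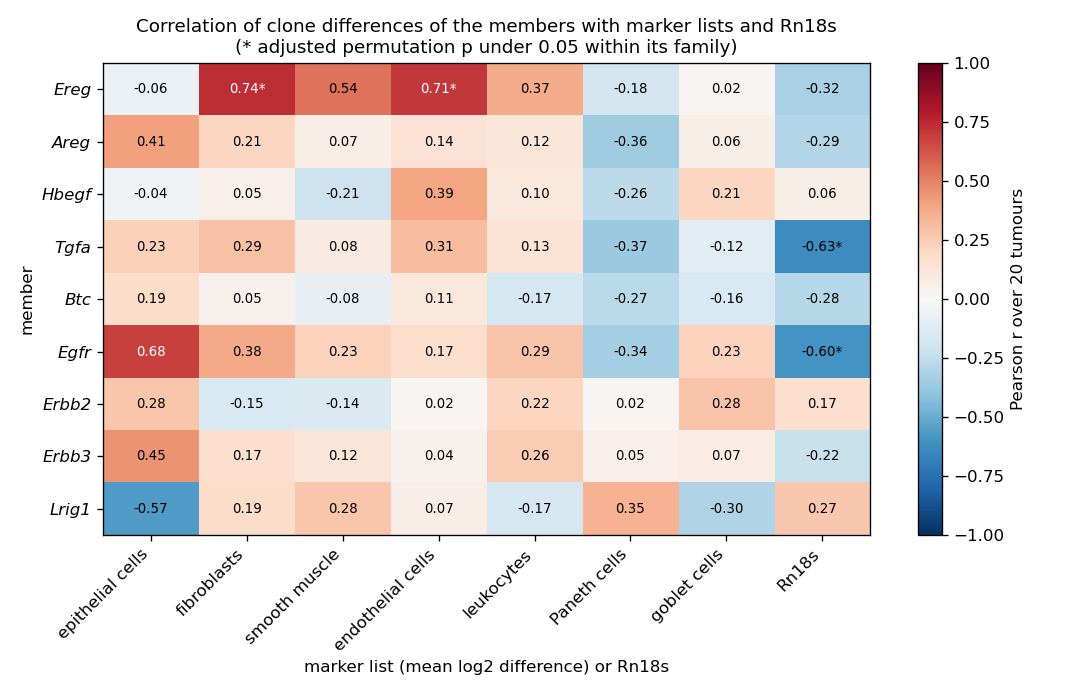
Pearson correlations over 20 tumours between the clone difference of each member and the mean clone difference of 7 marker lists or the difference of Rn18s, with stars where the permutation p adjusted within its family is under 0.05. Ereg has the highest values with fibroblasts and endothelial cells (0.74 and 0.71), and Tgfa and Egfr the lowest with Rn18s (-0.63 and -0.60).

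Undivided tumours were compared with each clone class, with the mouse as a covariate. No member passed against minor clones (610 of 16491 genes, or 3.70%, did) or against major clones (2 of 16510 genes, or 0.0121%). The 2 members with the smallest p against minor clones were Erbb3 and Btc. Erbb3 had a median of 6532 in undivided tumours (4117 to 9223), and was 0.20 above minor clones on the log2 scale (SE 0.10, p = 0.050, adjusted p = 0.25, limma) and at the level of major clones (difference -0.003, 95% interval -0.24 to 0.23). Without tumours 15, 17 and 18 of the male mouse these differences were 0.24 (adjusted p = 0.12, limma) and 0.05. Btc had a median of 1015 (314.7 to 1476) and differed from minor clones by -0.24 (SE 0.17, adjusted p = 0.45, limma), and by -0.06 without these 3 tumours. The 2 with the smallest p against major clones were Ereg and Lrig1. Ereg had a median of 182.1 (3.50 to 755.5) and differed from major clones by -0.96 (SE 0.50, 95% interval -1.97 to 0.05, adjusted p = 0.43, limma), and by -0.47 without the 3 (adjusted p = 0.67, limma). Lrig1 had a median of 1036 (653.1 to 2105) and differed by -0.27 (SE 0.15, adjusted p = 0.45, limma), and by -0.40 without the 3 (adjusted p = 0.31, limma).

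The undivided tumours 15, 17 and 18 of the male mouse were at or near the bottom of all 5 ligands and of Egfr. In these tumours Ereg was at 15.2, 3.50 and 18.2, while the other 20 undivided tumours ran from 9.41 to 755.5. Areg was at 92.6, 133.4 and 21.1, below all of the others (311.6 to 1190.5). Egfr was at 403.4, 327.2 and 213.8, again below all of the others (540.0 to 6201). Tgfa was at 854.6, 870.8 and 1011 against 1177 to 3472 in the others, and Hbegf at 350.6, 236.2 and 126.3 against 422.8 to 1621. Lrig1 was instead at the upper end, at 1678, 2105 and 1970 against 653.1 to 1770, and Erbb2, at 4656, 3319 and 4289 against 1824 to 4337, was not low. Rn18s was between 3432400 and 6081400 in them and between 176680 and 5503400 in the others, and its part was not tested. Without these 3 tumours, 3 of the 9 differences from minor clones and 5 of the 9 from major clones turned their sign, and again no member passed.

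In the 20 undivided tumours other than these, with levels centred on each mouse, Egfr rose with all 5 ligands. The values of r were 0.71 for Ereg, 0.70 for Areg, 0.71 for Tgfa, 0.67 for Btc and 0.54 for Hbegf (adjusted permutation p from 0.0026 to 0.042 over 15 pairs), but none of the 5 passed by rank (rho from 0.44 to 0.60, adjusted permutation p from 0.061 to 0.12). The sign was positive in both mice for each of them, with r from 0.29 to 0.66 in the female and from 0.51 to 0.89 in the male mouse, and r was 0.52 to 0.71 without the 2 tumours farthest in the ligand. Erbb2 and Erbb3 correlated at r = 0.65 (permutation p = 0.0021, adjusted p = 0.0064) and rho = 0.56 (permutation p = 0.012, adjusted p = 0.043). No pair of a ligand with Erbb2 or Erbb3 passed, with r from -0.42 (Ereg with Erbb2) to 0.47 (Tgfa with Erbb3). Undivided tumours were a separate set of libraries from the clones, and the choice to correlate levels in them was made after the clone differences were known.

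Between the intestinal segments labelled SI10 and SI20, in 12 and 11 undivided tumours, no member passed (28 of 16511 genes, or 0.170%, did). Ereg had the smallest p, with a median of 115.2 in SI10 (3.50 to 755.5) and 203.0 in SI20 (18.2 to 703.4). Its difference of 1.03 had an SE of 0.75 (adjusted p = 0.76, limma). Btc had medians of 926.9 and 1134 and a difference of 0.30 (SE 0.25, adjusted p = 0.79, limma). Without the undivided tumours 15, 17 and 18 of the male mouse the differences were 0.73 in Ereg and 0.25 in Btc, and again no member passed (limma).

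The wider pathway was described with 59 further genes in 5 roles, of which 55 passed the filter on low values in the comparison of clones. Of these, 1 was called higher in major clones and none lower, against 1.14% of all genes. An unadjusted p under 0.05 was found for 11 of the 55 (limma). That is not above the share over all 16428 genes, which was 22.4%. The called gene was Ksr1, a scaffold of the MAPK cascade, which was 0.46 higher in major than in minor clones on the log2 scale (SE 0.11, adjusted p = 0.041, limma) and higher in the major clone in 16 of 20 tumours. The call is near the threshold: it held in 9 of 20 refits that left out 1 tumour (adjusted p from 0.021 to 0.083, difference from 0.40 to 0.50, limma). With other settings it held in only 5 of 12 fits, which include again those without tumour 22 and without tumour 26 of the female mouse. Among the settings that lost the call were each mouse alone and the fit without the tumour as a block (adjusted p = 0.18, limma). Ksr1 was also 0.42 higher in undivided tumours than in minor clones (SE 0.12, adjusted p = 0.032, limma), in the male mouse alone by 0.70 and in the female mouse alone by 0.11.

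Of the other ligands and receptors of the family, 4 of 7 (Egf, Epgn, Nrg3 and Erbb4) were below the filter. Nrg1, a neuregulin that binds ERBB3, was 0.55 apart between clones (95% interval 0.004 to 1.10, adjusted p = 0.22, limma) and Nrg2 -0.53 (adjusted p = 0.29, limma), and neither passed. Nrg2 lies at the filter, which it passed in the comparison of undivided tumours with minor clones and not in that with major clones. Its medians were 6.45 in undivided tumours and 10.5 in minor clones, and its difference of -1.40 on the log2 scale (SE 0.38, adjusted p = 0.033, limma) is therefore given as a description. The value ran from -2.06 to -0.84 with other settings, was called in 39 of 43 refits that left out 1 tumour, and had an adjusted p of 0.47 in the female mouse alone (limma). Among the 6 genes of ligand shedding none passed, and the smallest p values between clones were those of Adam9 (0.13, adjusted p = 0.32) and Rhbdf2 (0.08, adjusted p = 0.52, limma). Of the 9 genes that restrain receptors, Lrig3, a relative of Lrig1, had the smallest p between clones, with a difference of 0.48 (SE 0.16, adjusted p = 0.099, limma), followed by Rnf41, a ubiquitin ligase of ERBB3, at -0.10 (adjusted p = 0.17). Of the 17 genes induced by ERK none passed, with Phlda1 at 0.30 (adjusted p = 0.14, limma) and Spry1, a feedback inhibitor, at -0.23 (adjusted p = 0.21). The median difference between clones was 0.05 over the ERK-induced genes and 0.06 over all 55.

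The genes most like each member were ranked by Pearson's r over the 63 libraries among 16295 genes, after centring on group and mouse. This is a description over libraries that share their scaling and 2 mice. Ereg was most like Inhba (0.90), a subunit of activin, with Nrg1 (0.90) and the protease Mmp10 (0.89), while Areg was most like Plaur (0.91), the urokinase receptor. Hbegf went with the immediate early genes Fos (0.89), Plk3 (0.87) and Dusp1 (0.86). Among the genes most like Egfr were Lama3 (0.93), which encodes a laminin chain, and Prkx (0.93), the latter shared with Tgfa (0.90). Btc was most like Nipal2 (0.81), and Erbb2 less closely like Wdtc1 (0.73). Erbb3 went with Lima1 and Sel1l (both 0.86) and Lrig1 with Smoc2 (0.79), a matrix protein known as a marker of intestinal stem cells. Without the 3 outlying tumours the first gene was the same for 7 of the 9 members, while Egfr was then led by Lama3 (0.94) and Btc by Niban2 (0.74).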

How the data were processed

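The files hold 1 table of normalised counts for 63 libraries, a signal that is not whole numbers. The authors trimmed paired-end reads of a stranded poly(A) kit and estimated a count per gene with Salmon 1.9.0 against Gencode on GRCm39, and deposited the signal after scaling between libraries. The submitters' processing notes also name Trimmomatic 0.39, STAR 2.7.7a, Picard 2.27.3, FastQC 0.11.9 and DESeq2. How the scaling was done is not given in the sources used here. Whole reads could not be recovered, so no count model was used, and Salmon can share reads among similar genes. No column was left out.

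Clone classes came from the order of clones in the study's source data and undivided tumours from labels without a clone letter. Tumour numbers pair the clones: both come from 1 tumour of 1 animal. Their deviations over genes from the mean of their class and mouse had a median correlation of 0.207 (-0.101 to 0.556), over 0.1 in 16 of 20 pairs. Clones of different tumours were not correlated and the segment was not centred, so these values cannot test the pairing. Tumours of 2 mice are the replicates, so p-values measure the spread between tumours, not between mice.

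Genes with a mean of at least 10 were tested on log2(value + 1) with limma 3.58.1 (eBayes with trend, R 4.3.3), with the tumour as a block or the mouse as a covariate, and p-values were adjusted by Benjamini-Hochberg over all genes at a threshold of 0.05. Fold changes on this scale understate the change of low genes. Correlations over tumours were tested with 100000 two-sided permutations and adjusted within each family of pairs. The limma and correlation steps were tested on simulated data. Alternatives were another pseudocount, filter or scaling, a rank test, each mouse alone, the segment as a covariate, no block and leaving out each tumour. The members, lists and tests were chosen with earlier results of these data known. All members were named, and, for each pathway role, the called genes or else the 2 with the smallest p between clones. In other comparisons the 2 members with the smallest p were named. Some genes that this rule names are not reported here. Exon lengths and positions were taken from Gencode M39 on the same build. Protein sequences were not used here.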

Additional observations from a re-analysis of the deposited data

Results flagged for a closer look

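Dixon's test of the highest and lowest tumour, applied to each member in each class of 10 tumours per mouse and to the clone differences per mouse, was passed in 4 of 63 groups, where chance gives about 1 in 20. In tumour 26 of the female mouse, the difference of Egfr (2.44 on the log2 scale, higher in the major clone) and that of Areg (1.79) lay far above those of the other 9 tumours. In the male mouse, tumour 20 had a minor clone with less Erbb2 (log2 level 11.15) than the other 9. Erbb2 was also lower in the undivided tumour 5 of the female mouse (log2 level 10.83) than in the other 9.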

How the results depend on the processing

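No member was called in any refit: 33 of major against minor clones, 54 of undivided tumours against each clone class and 10 of the segments. Among the 33, the fits without tumour 22 and without tumour 26 of the female mouse are each counted more than once. Without the replicate block, which is the pairing of clones by tumour, 0 members passed and no sign turned. Signs of small, uncalled differences between clones did turn. In the female mouse alone Areg was at -0.0275, Egfr at -0.0587 and Erbb2 at -0.00318, and in the male mouse alone Hbegf was at 0.0586 and Tgfa at 0.13. By the median of the signed-rank test Areg was at -0.0293 and Egfr at -0.10. Without the tumour whose clones carry different segment labels, tumour 22 of the female mouse, Tgfa was at 0.0178. Leaving out 1 tumour at a time moved Tgfa from -0.0452 to 0.0184. Egfr ran from -0.0172, without tumour 26 of the female mouse, to 0.16. In the female mouse alone, undivided tumours differed from minor clones by -0.00614 in Erbb3 and 0.23 in Btc, and SI20 from SI10 by -0.77 in Ereg. Of the ligand and receptor pairs, 2 passed; this became 0 without the 2 tumours farthest in the ligand and 0 in either mouse alone (10 tumours each), 4 without tumour 26 of the female mouse, and 1 with the Rn18s or the fibroblast difference regressed out. No passing pair was negative in any of these. The last 3 of these settings, the epithelial one, leaving out the 3 male tumours and the correlations in undivided tumours and with Rn18s were chosen after seeing the data. The causes were not tested.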
